A study of Mus musculus with 7 samples.

Results

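Sertoli cell genes were followed in sorted prospermatogonia, the mitotically arrested male germ cells of the fetal testis. The 10 genes were Sox9, Sox8, Wt1, Gata4, Dmrt1, Amh, Dhh, Inha, Clu and Cldn11, chosen by their symbol among the 20643 genes of the expression table, and each had a value in every library. Total RNA was sequenced from 7 libraries of EGFP+ cells sorted from fetal testes, labelled 15.5 dpc (days post coitum) in the protocol and 15 dpc in the source name. There were 2 wild-type (WT) libraries (replicates 1 and 2), 2 H19Ter/H19Ter libraries (replicates 3 and 4) and 3 H19Ter+neo/H19Ter+neo libraries (replicates 5, 6 and 7). H19Ter is an insertion of the rabbit β-globin transcription terminator ahead of the H19/Igf2 imprinting control region, and H19Ter+neo also keeps the Pgkneo selection cassette, which had been removed from H19Ter by crossing to a Hprt-Cre line.

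Both mutants were homozygous and came from chimeras of 1 line of 129S1 embryonic stem cells, so H19Ter and H19Ter+neo share that origin. Male chimeras were crossed to 129S1 females carrying CTCF site mutations in the same control region. The sorted cells carried a Pou5f1-EGFP transgene (TgOG2, of B6;CBA origin), in which the germline promoter of Pou5f1 (Oct4) drives EGFP, and testes could be pooled before sorting. The sources used here do not give the litters or the strain background of each library, so genotype and strain background cannot be told apart, and the p-values measure only the spread between these libraries. The libraries held 45103957 and 45922224 counted read pairs in WT, 51170458 and 37546716 in H19Ter/H19Ter and 84104114 to 87326484 in H19Ter+neo/H19Ter+neo. The H19Ter+neo/H19Ter+neo libraries were therefore the deepest, and depth and genotype cannot be told apart. Levels are given as CPM, the read pairs of a gene scaled to a common library total, and log2 values contain a small prior count, so that a fold change understates the change of a low gene.

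Sertoli cells are the somatic cells that enclose the germ cells in the testis cords. The transcription factor SOX9 commits the supporting cells of the XY gonad to the Sertoli fate and, with WT1, GATA4 and the orphan receptor NR5A1, turns on Amh, whose hormone makes the Müllerian ducts regress. Sertoli cells also send Desert hedgehog (DHH) to the interstitial cells and make the inhibin alpha subunit (INHA) and the tight junction protein claudin 11 (CLDN11). The genes differ in how far they mark these cells: Wt1 and Gata4 are also used by other somatic cells of the gonad, Clu (clusterin) is a secreted chaperone of many cell types, and Dmrt1 is a factor that Sertoli cells and germ cells both make.

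Dmrt1 stood apart from the other 9 genes in every library. Per kb of exon it had 31.6 ± 4.57 CPM (SD over 7 libraries), Clu had 3.81 ± 0.375, and the remaining 8 genes had means between 0.259 (Dhh) and 1.64 (Amh). The ranges of Dmrt1 (26.4 to 39.1) and Clu (3.43 to 4.34) overlapped with no lower gene of the list. Below them the order by mean CPM per kb was Amh, Gata4, Sox9, Inha, Wt1, Sox8, Cldn11 and Dhh, and the range of each overlapped with the next. Amh was above Gata4 in 4 of 7 libraries and Gata4 above Sox9 in 3 of 7, so that these neighbours could not be ordered, whereas Sox8 was above Cldn11 in all 7. Ddx4, a germ cell RNA helicase, was 93.0 times the level of Amh per kb in WT replicate 1 and 236 times in H19Ter+neo/H19Ter+neo replicate 7, with the other libraries between. In bulk RNA, fewer cells of a type and less RNA per cell cannot be told apart.

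**Figure D1:**
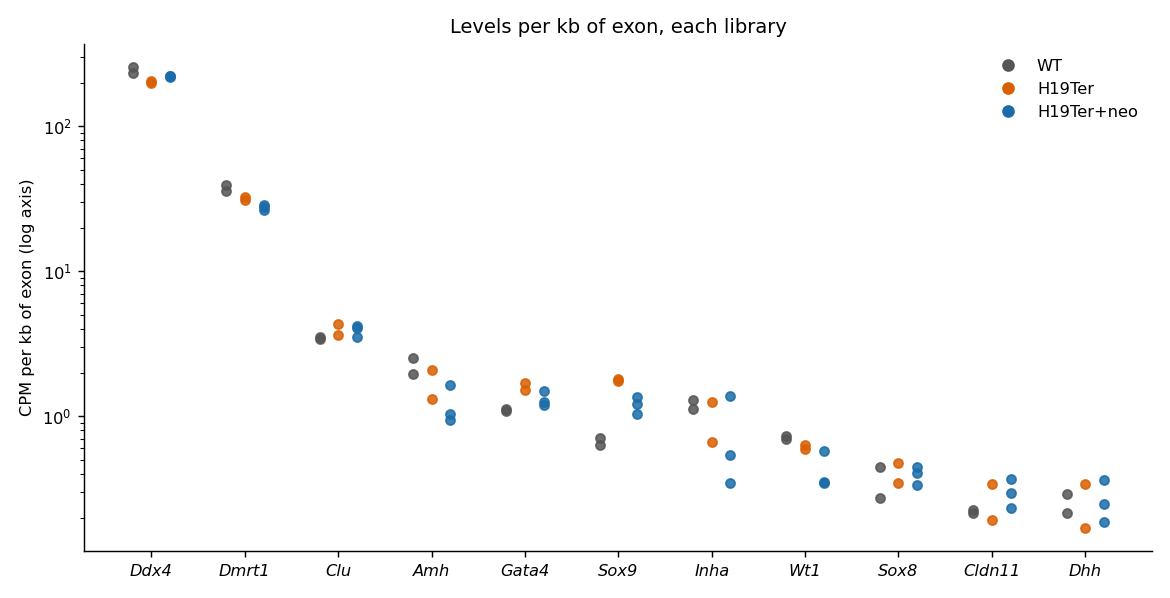
CPM per kb of exon, on a log axis, of the germ cell gene Ddx4 and the 10 Sertoli cell genes in each of the 7 libraries, coloured by genotype. Dmrt1 lies between 26.4 and 39.1 in every library, Clu between 3.43 and 4.34, and the other 8 genes between 0.170 and 2.51.

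The members did not share a direction between genotypes. In H19Ter/H19Ter against WT, 2 of 10 rose (Sox9 and Gata4), 1 fell (Dmrt1) and 7 were not called (limma with an adjusted p under 0.05 over all genes), beside 25.1% of all genes called, 14.1% higher and 11% lower. In H19Ter+neo/H19Ter+neo against WT, 1 rose (Sox9), 3 fell (Amh, Wt1 and Dmrt1) and 6 were not called, beside 54.4% of all genes, 27.7% higher and 26.7% lower. Between the mutants, 1 fell (Sox9) in H19Ter+neo/H19Ter+neo and 9 were not called, beside 27.7% of all genes, 12.5% higher and 15.2% lower. The first 2 comparisons share the WT libraries. The median log2 fold change of the 10 genes was 0.07, 0.10 and -0.25 in these comparisons, and that of all genes -0.01, 0.01 and 0.01. Of all calls in H19Ter/H19Ter against WT, 56.2% were higher, and 72.5% when libraries were scaled to the same total.

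Libraries that did not overlap between genotypes were common in the whole table. In H19Ter/H19Ter, 3 members lay above both WT libraries and 2 below, beside 67.5% of all genes not overlapping (32.4% above and 35% below). For H19Ter+neo/H19Ter+neo, 4 lay above and 3 below, beside 71.8% (36.6% and 35.2%). Between the mutants 4 members were lower in every H19Ter+neo/H19Ter+neo library, beside 56.3% of all genes (28.2% higher and 28.1% lower).

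**Figure D2:**
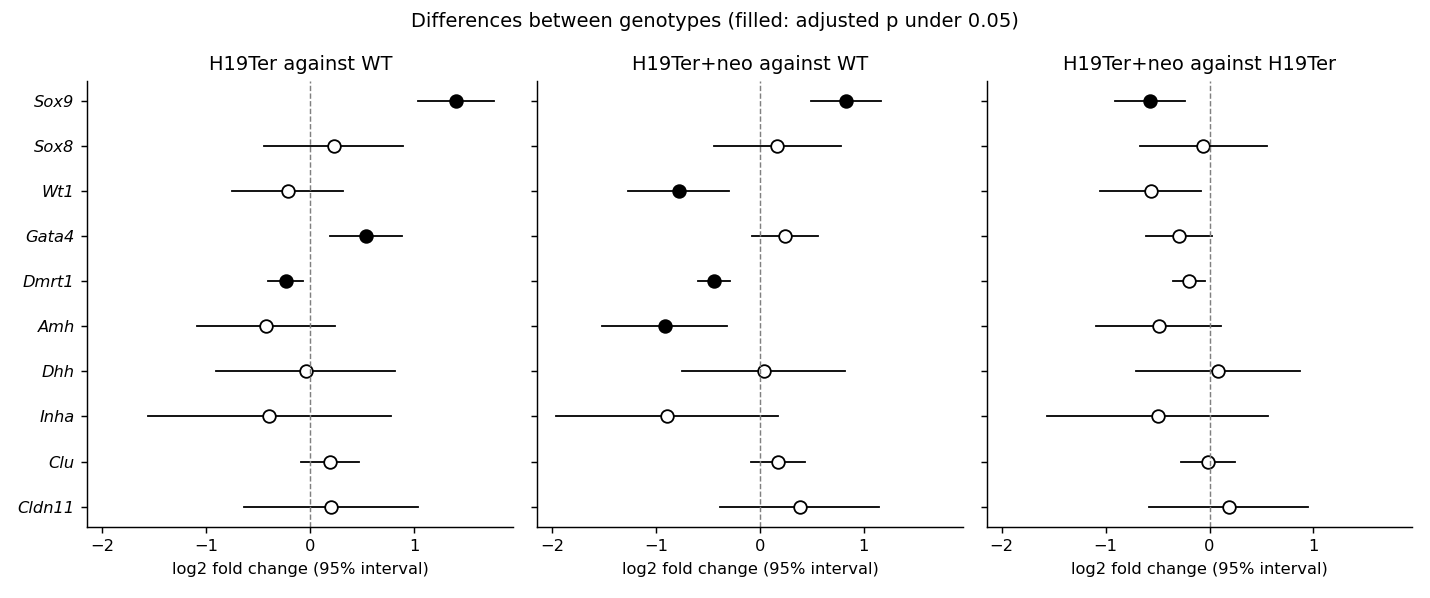
log2 fold change of each Sertoli cell gene in the 3 comparisons, with its 95% interval from limma, and filled circles for an adjusted p under 0.05. Sox9 lies to the right of 0 in both mutants against WT (1.40 and 0.83), while Amh, Wt1 and Dmrt1 lie to the left in H19Ter+neo/H19Ter+neo (-0.92, -0.78 and -0.44).

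Among the transcription factors, Sox9 (chromosome 11, 112782224-112787760, plus strand, GRCm38) had 2.64 and 2.92 CPM in the WT libraries, 7.27 and 7.48 in H19Ter/H19Ter, and 4.28, 5.04 and 5.62 in H19Ter+neo/H19Ter+neo. The 3 genotypes did not overlap, with WT lowest and H19Ter/H19Ter highest. Sox9 was 2.64-fold higher in H19Ter/H19Ter than in WT (log2 fold change 1.40, SE 0.17, limma adjusted p = 0.00078). It was 1.78-fold higher in H19Ter+neo/H19Ter+neo (0.83, SE 0.15, limma adjusted p = 0.00112). Between the mutants it was lower with the Pgkneo cassette (-0.57, SE 0.15, limma adjusted p = 0.0187), a call lost without H19Ter/H19Ter replicate 3 (-0.59, limma adjusted p = 0.0913) or replicate 4 (-0.55, limma adjusted p = 0.101). Behind these levels were 118 and 130 read pairs of Sox9 in WT, 387 and 290 in the H19Ter/H19Ter libraries, and 349 to 485 in those of H19Ter+neo/H19Ter+neo.

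Sox8, a SOX factor that acts with Sox9 in Sertoli cells, was not called in any comparison. It had 0.849 and 1.39 CPM in WT, 1.09 and 1.5 in H19Ter/H19Ter, and 1.26, 1.04 and 1.39 in H19Ter+neo/H19Ter+neo. The genotypes overlapped, and the 95% interval of the log2 fold change ran from -0.45 to 0.90 in H19Ter/H19Ter and from -0.45 to 0.78 in H19Ter+neo/H19Ter+neo. Sox8 (chromosome 17, 25565892-25570686, minus strand) shares 329 of its 3118 exon bases with Cerox1 on the opposite strand, which itself had 0.394 to 0.903 CPM. The sources used here do not give the strand setting of the counting.

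Wt1, a zinc finger factor that maintains Sertoli cells, had 4.31 and 4.51 CPM in WT, 3.93 and 3.66 in H19Ter/H19Ter, and 3.57, 2.17 and 2.14 in H19Ter+neo/H19Ter+neo. Both WT libraries were the highest, and replicate 5 of H19Ter+neo/H19Ter+neo lay just under the H19Ter/H19Ter libraries while replicates 6 and 7 were lower. Wt1 fell in H19Ter+neo/H19Ter+neo against WT (-0.78, SE 0.22, limma adjusted p = 0.0121), though not at the threshold without WT replicate 2 (-0.75, limma adjusted p = 0.0763). The change in H19Ter/H19Ter was -0.22 (95% interval -0.75 to 0.32). Between the mutants the difference was -0.57 (limma adjusted p = 0.0801) with all libraries and -0.81 (limma adjusted p = 0.00597) without H19Ter+neo/H19Ter+neo replicate 5.

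Gata4, a zinc finger factor of the gonadal soma, lay on the other side of WT from Wt1. It had 4.38 and 4.25 CPM in WT, 6.63 and 5.93 in H19Ter/H19Ter, and 5.83, 4.67 and 4.89 in H19Ter+neo/H19Ter+neo. All 5 mutant libraries were above both WT libraries. Gata4 rose 1.45-fold in H19Ter/H19Ter (0.54, SE 0.16, limma adjusted p = 0.0311), a call lost when any 1 of the 4 WT and H19Ter/H19Ter libraries was left out, with the log2 fold change then between 0.46 and 0.62 and the limma adjusted p between 0.0792 and 0.151. It was also lost with voom (limma adjusted p = 0.0640) and after thinning all libraries to 1 depth (limma adjusted p = 0.0560). In H19Ter+neo/H19Ter+neo the change was 0.24 (SE 0.14, limma adjusted p = 0.171).

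Dmrt1 had 92.9 and 102 CPM in WT, 80.5 and 84.2 in H19Ter/H19Ter, and 74.8, 71.8 and 68.5 in H19Ter+neo/H19Ter+neo. The 3 genotypes did not overlap, and the order was WT, H19Ter/H19Ter, H19Ter+neo/H19Ter+neo from high to low. Dmrt1 fell by 0.44 on the log2 scale in H19Ter+neo/H19Ter+neo (SE 0.07, limma adjusted p = 0.000491). In H19Ter/H19Ter it fell by 0.24 (SE 0.08, limma adjusted p = 0.0439), and this call was lost when libraries were scaled to the same total (-0.16, limma adjusted p = 0.141), with voom (limma adjusted p = 0.0668), and when any 1 of the 4 WT and H19Ter/H19Ter libraries (limma adjusted p between 0.0547 and 0.282) or H19Ter+neo/H19Ter+neo replicate 6 (limma adjusted p = 0.0571) was left out. Ddx4 in the same libraries differed from WT by -0.27 in H19Ter/H19Ter (SE 0.06, limma adjusted p = 0.00993) and by -0.15 in H19Ter+neo/H19Ter+neo (SE 0.05, limma adjusted p = 0.0352).

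**Figure D3:**
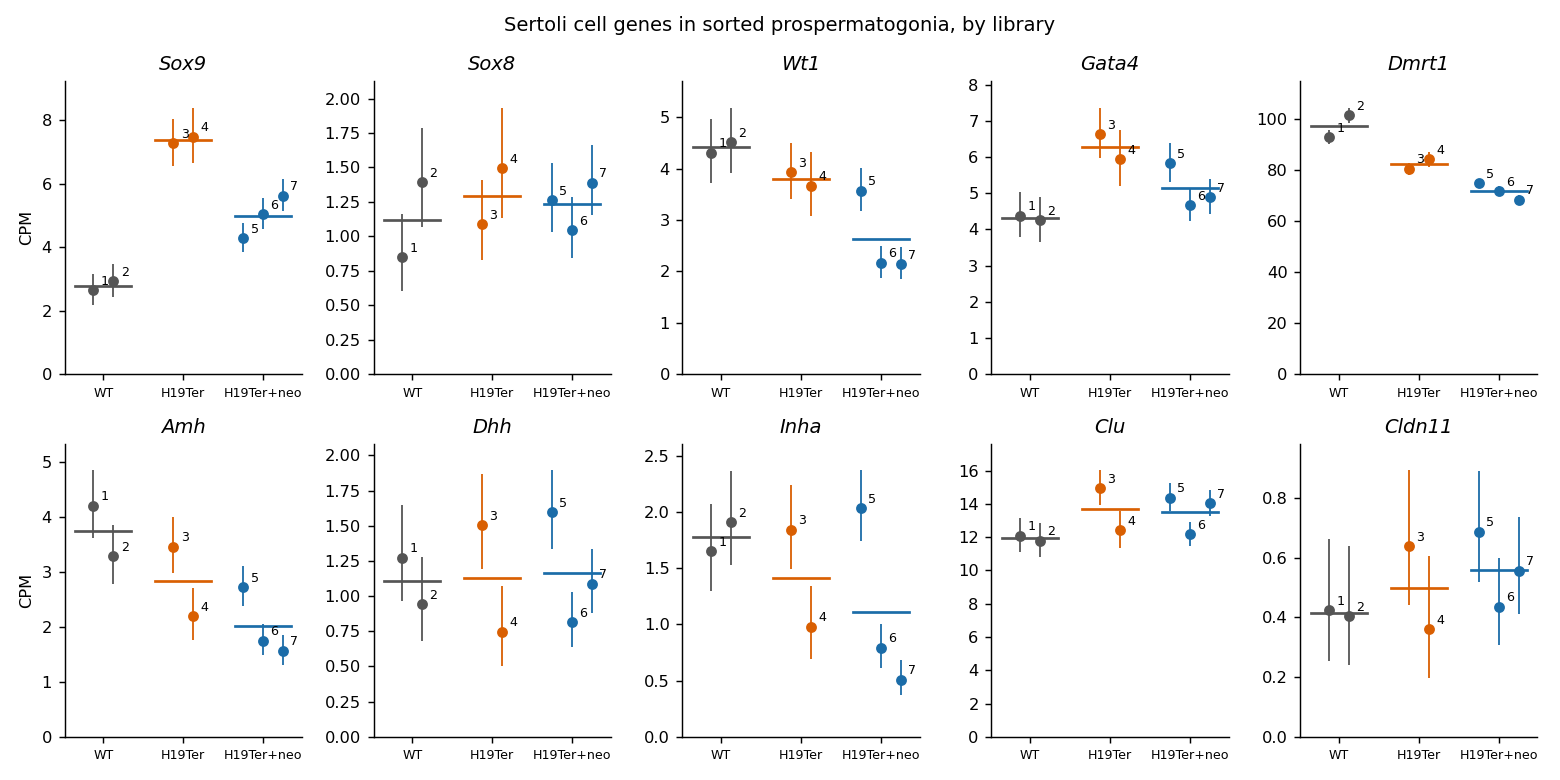
CPM of each Sertoli cell gene in the 7 libraries, with the replicate number beside each point, 95% Poisson intervals as bars and the mean of each genotype as a line. Sox9 and Dmrt1 separate the 3 genotypes (Sox9 2.64 to 2.92, 7.27 to 7.48 and 4.28 to 5.62 CPM). Amh, Dhh and Inha are spread within the mutant groups, with replicates 3 and 5 above their group mates. Replicates 3 and 5 are also above their group mates for Wt1, Gata4, Clu and Cldn11.

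Among the secreted products, Amh had 4.20 and 3.28 CPM in WT, 3.46 and 2.19 in H19Ter/H19Ter, and 2.72, 1.74 and 1.56 in H19Ter+neo/H19Ter+neo. The H19Ter/H19Ter libraries overlapped with both other genotypes, and all H19Ter+neo/H19Ter+neo libraries were below WT. Amh fell in H19Ter+neo/H19Ter+neo against WT (-0.92, SE 0.27, limma adjusted p = 0.0159). This was the opposite direction to Sox9 in the same libraries. Without WT replicate 1, the library with the most Amh, the change was -0.74 (limma adjusted p = 0.120). In H19Ter/H19Ter the log2 fold change was -0.43 (95% interval -1.09 to 0.23).

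Amh (chromosome 10, 80805243-80807648, plus strand) begins 319 bases beyond the end of Sf3a2, a splicing factor gene on the same strand that is transcribed towards it. Sf3a2 had 102 and 94.4 CPM in WT, 91.0 and 83.6 in H19Ter/H19Ter, and 48.3, 56.7 and 49.5 in H19Ter+neo/H19Ter+neo. It fell in H19Ter+neo/H19Ter+neo by 0.93 on the log2 scale (SE 0.08, limma adjusted p = 2.24e-05), beside the 0.92 by which Amh fell. Read pairs of Amh were 4.11% and 3.47% of those of Sf3a2 in WT, 3.8% and 2.62% in H19Ter/H19Ter, and 5.64%, 3.08% and 3.16% in H19Ter+neo/H19Ter+neo. The share overlapped between the genotypes, and the part of Sf3a2 in the Amh result was not tested. This neighbour was singled out after its values were seen.

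Dhh, the hedgehog ligand of Sertoli cells, had 1.27 and 0.943 CPM in WT, 1.5 and 0.748 in H19Ter/H19Ter, and 1.59, 0.815 and 1.09 in H19Ter+neo/H19Ter+neo. The genotypes overlapped, with replicates 3 and 5 the highest of all 7 libraries. The log2 fold change was -0.04 in H19Ter/H19Ter (95% interval -0.91 to 0.82) and 0.03 in H19Ter+neo/H19Ter+neo (-0.75 to 0.82), so that changes within these intervals could not be told from the spread between libraries. Dhh (chromosome 15, 98891152-98898540, minus strand) shares 546 of its 4399 exon bases with Rhebl1 on the same strand, which had 19.96 to 25.5 CPM, and read pairs in the shared bases may be assigned to neither gene. On the opposite strand 1107 of the exon bases of Dhh are shared with Gm49442, which had no row in the table.

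Inha had 1.65 and 1.91 CPM in WT, 1.84 and 0.980 in H19Ter/H19Ter, and 2.04, 0.792 and 0.510 in H19Ter+neo/H19Ter+neo. Replicate 5 was the highest of the 7 libraries and replicate 7 of the same genotype the lowest. Inha differed in H19Ter+neo/H19Ter+neo by -0.89 (SE 0.48, limma adjusted p = 0.138) with all libraries and by -1.44 (limma adjusted p = 0.0043) without replicate 5. In H19Ter/H19Ter the difference was -0.39 (95% interval -1.56 to 0.77).

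Clu, the chaperone, had 12.1 and 11.8 CPM in WT, 14.9 and 12.4 in H19Ter/H19Ter, and 14.4, 12.2 and 14.0 in H19Ter+neo/H19Ter+neo. All 5 mutant libraries were above WT, yet the log2 fold changes of 0.19 (95% interval -0.09 to 0.47) and 0.18 (-0.08 to 0.43) were not called. Cldn11, the junction protein, had the lowest mean CPM of the 10 genes, with 0.424 and 0.404 in WT, 0.639 and 0.361 in H19Ter/H19Ter, and 0.687, 0.436 and 0.556 in H19Ter+neo/H19Ter+neo. It rested on 14 to 56 read pairs a library. The H19Ter+neo/H19Ter+neo libraries were above WT (log2 fold change 0.39, 95% interval -0.38 to 1.15), and the H19Ter/H19Ter libraries overlapped with WT.

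Differences between libraries of 1 genotype were as large as those between genotypes for part of the list. H19Ter/H19Ter replicate 3 was above replicate 4 by 0.98 on the log2 scale for Dhh, 0.89 for Inha, 0.77 for Cldn11 and 0.65 for Amh. H19Ter+neo/H19Ter+neo replicate 5 was above the mean of replicates 6 and 7 by 1.63 for Inha, 0.74 for Dhh, 0.72 for Wt1 and 0.71 for Amh. Sox9 went the other way in both groups (-0.04 and -0.31), and Dmrt1 differed by -0.07 and 0.09. Of the 10 genes, Amh, Dhh and Inha were past 0.5 in both groups, as were 265 of all 20643 genes (1.28%). Replicate 3 was also above 4, and replicate 5 above both 6 and 7, for Wt1, Gata4, Clu and Cldn11. The differences were 0.10 and 0.72 for Wt1, 0.16 and 0.28 for Gata4, 0.27 and 0.14 for Clu, and 0.77 and 0.45 for Cldn11. The share of all genes with that order was not computed. The threshold of 0.5 was chosen after the values were seen.

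Markers of other testis cells differed between the same libraries. Past 0.5 in both groups were 6 of 8 Leydig cell markers, 8 of 19 interstitial and peritubular markers, 6 of 25 further Sertoli cell genes and none of 22 germ cell markers. The median log2 CPM of the 8 Leydig cell markers was 1.35 and 1.93 in WT, 2.64 in replicate 3 and 1.22 in replicate 4, and 2.71, 0.53 and 0.10 in replicates 5, 6 and 7. Cyp17a1, which makes androgen precursors in Leydig cells, was 1.96 higher in replicate 3 than in replicate 4 and 3.40 higher in replicate 5 than in the mean of replicates 6 and 7. The summed CPM of the Leydig cell markers ranged from 73.3 to 78.7 in WT, 76.0 to 91.5 in H19Ter/H19Ter and 64.9 to 95.4 in H19Ter+neo/H19Ter+neo. Most of this sum came from Scarb1 and Fdx1 (means of 39.2 and 22.1 CPM), the 2 markers not past 0.5. They differed by 0.04 and -0.13 between replicates 3 and 4, and by 0.02 and 0.17 for replicate 5. The sum therefore hides the spread of other markers, such as Cyp17a1 (0.649 to 10.4 CPM). The Leydig cell hormone gene Insl3 had no value in the table. No marker with a value was at 0 in all libraries, and neither was any other gene of the table. The part of Leydig cells in the values of Amh, Dhh and Inha was not tested. Without replicates 3 and 5, an exclusion chosen after seeing the data, 1 member (Sox9) was called in H19Ter/H19Ter and 5 in H19Ter+neo/H19Ter+neo against WT.

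**Figure D4:**
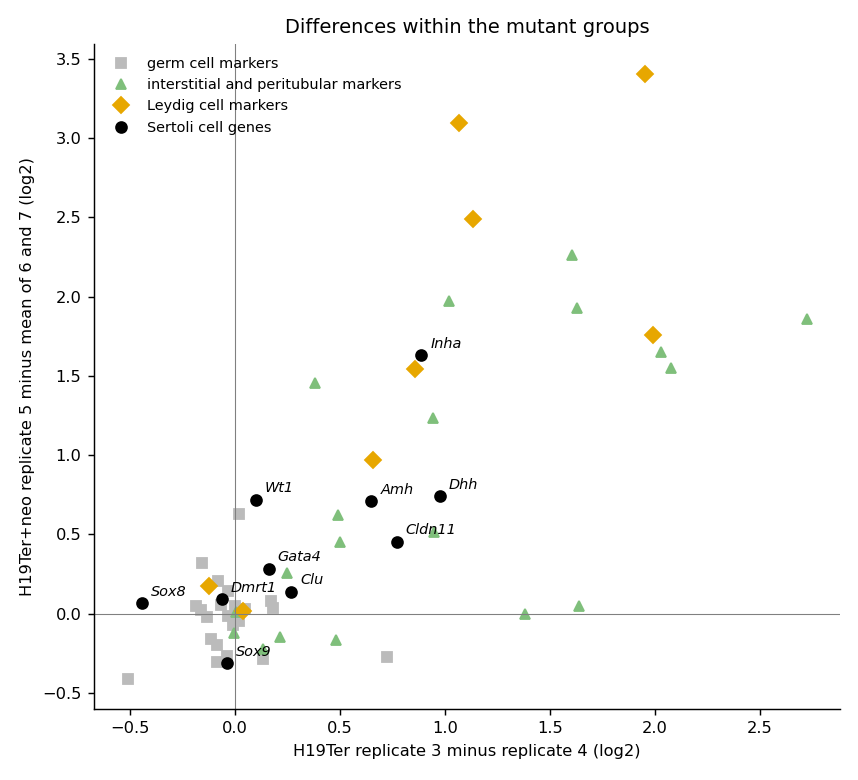
Differences within the mutant groups, with H19Ter/H19Ter replicate 3 minus replicate 4 on the x axis and H19Ter+neo/H19Ter+neo replicate 5 minus the mean of replicates 6 and 7 on the y axis, both in log2 units. Amh, Dhh and Inha lie in the upper right with 6 of the 8 Leydig cell markers, and Wt1, Gata4, Clu and Cldn11 are above 0 on both axes. Sox9, Sox8 and Dmrt1 lie near or below 0 with most germ cell markers.

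Across the 7 libraries the members fell into more than 1 pattern. Amh and Wt1 had a Pearson r of 0.91, Amh and Inha 0.88, and Clu and Cldn11 0.92, whereas Sox9 and Amh had -0.51 and Sox9 and Dmrt1 -0.58. Taken as deviations from the genotype means, r was positive for every pair among Amh, Wt1, Gata4, Dhh, Inha, Clu and Cldn11. It ran from 0.49 for Wt1 and Clu to 0.97 for Clu and Cldn11 and for Dhh and Cldn11, with 0.92 for Wt1 and Inha. Wt1 and Gata4, which lay on opposite sides of WT, had 0.91. Sox9 was negative with each of these genes, at -0.85 with Amh, while Sox8 and Dmrt1 had both signs. These are descriptions over 7 libraries, which share genotype and depth, and 45 pairs were computed. Among the 14204 genes with a mean log2 CPM of at least 1, the 5 most like Sox9 were Isoc2a, Haglr, Lama5, Cavin1 and Sptb (r 0.989 to 0.994). Those most like Amh were Mrpl43, Gm37052, Ankrd52, Spg7 and Dtx3 (0.964 to 0.980), and those most like Dmrt1 included Ybx3, Foxred1, Mia2 and Nek4 (0.996 to 0.999). An r over 0.9 was reached by 278 genes for Sox9, 155 for Amh and 2170 for Dmrt1.

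Ratios within a library set each gene against Amh and take out a factor common to all 10 genes. The log2 ratio of Sox9 to Amh was -0.67 and -0.17 in WT, 1.07 and 1.76 in H19Ter/H19Ter, and 0.65, 1.51 and 1.82 in H19Ter+neo/H19Ter+neo. All 5 mutant libraries were above both WT libraries for Sox9, Gata4, Dhh, Clu and Cldn11, while Sox8, Wt1, Inha and Dmrt1 overlapped. Amh itself was lower in the mutants (-0.43 and -0.92 on the log2 scale), so a gene without a change rises in this ratio. Dhh differed from WT by -0.04 and 0.03, yet its ratio differed by 0.72. The share of all genes above WT in this ratio was not computed. The mean difference between the 5 mutant and the 2 WT libraries was 1.78 for Sox9, 1.08 for Gata4, 1.03 for Cldn11 and 0.90 for Clu (exact permutation test, two-sided, p = 0.0476 each, the smallest that 21 regroupings allow, adjusted p = 0.107 over the 9 ratios). For Wt1 and Inha the differences were 0.16 and 0.03 (exact permutation p = 0.476 and 0.952). None of the 9 ratios passed the adjustment, 4 had an unadjusted p under 0.05, and all share the Amh value. With the median of the 9 genes other than Dmrt1 in place of Amh, Sox9 differed by 1.36 and Gata4 by 0.66 (exact permutation test, adjusted p = 0.159 each). That median was the value of Sox9 itself in both WT libraries and of Amh itself in all 5 mutant libraries. The ratio of Sox9 to it is thus 0 in WT by construction, and this reference cannot check the choice of Amh.

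**Figure D5:**
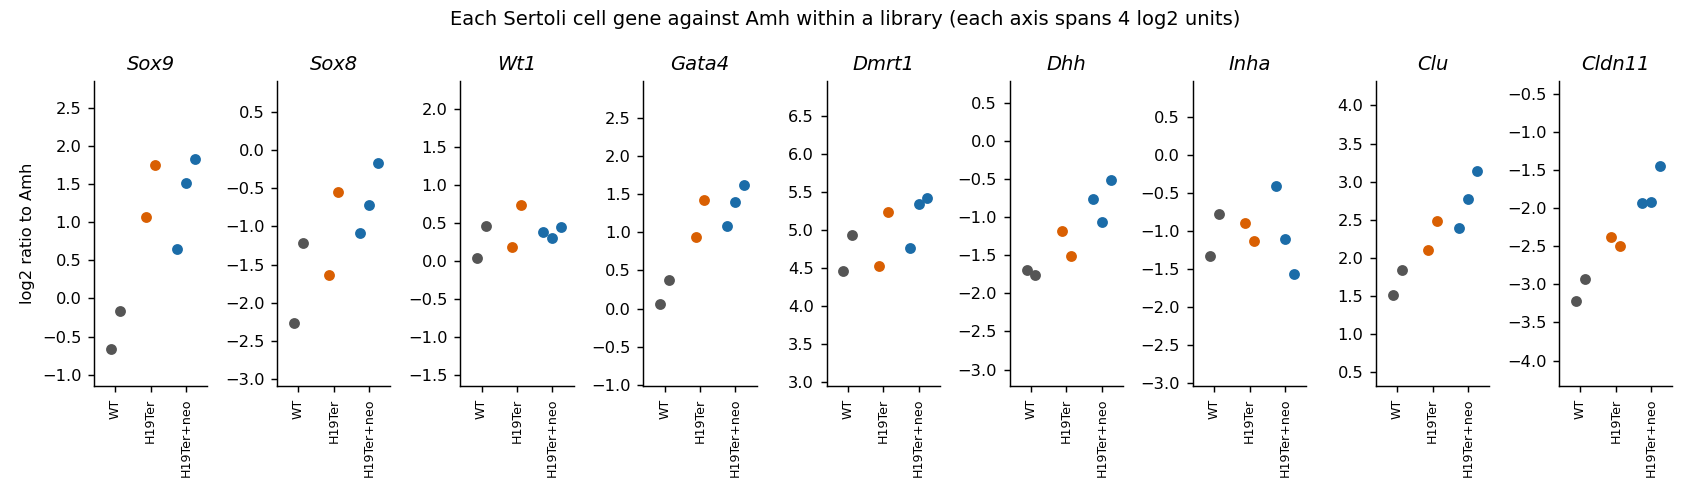
log2 ratio of each Sertoli cell gene to Amh in each library, by genotype (WT grey, H19Ter/H19Ter orange, H19Ter+neo/H19Ter+neo blue), with every axis spanning 4 log2 units. The ratio of Sox9 lies at -0.67 and -0.17 in WT and between 0.65 and 1.82 in the 5 mutant libraries, while those of Wt1 and Inha overlap between the genotypes.

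The total of the 9 genes other than Dmrt1 does not show the direction of single genes. Its largest part was Clu (mean 13.1 CPM). In H19Ter/H19Ter against WT none of the 9 was called lower by limma, beside 11% of all genes, and Sox9 went from a mean of 2.78 to 7.38 CPM. It was 31.8 and 31.4 CPM in WT, 41.3 and 35.3 in H19Ter/H19Ter, and 36.4, 28.9 and 31.8 in H19Ter+neo/H19Ter+neo. Their median log2 CPM was 1.42 and 1.56 in WT, 1.80 and 1.15 in H19Ter/H19Ter, and 1.46, 0.83 and 0.67 in H19Ter+neo/H19Ter+neo. By total H19Ter/H19Ter was above WT. The median was the value of Sox9 in both WT libraries and of Amh in every mutant library. It therefore sets different genes against each other and gives no common level to compare between genotypes.

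Further Sertoli cell genes were called in both directions. Of 34 listed genes, 25 had a value, and in H19Ter/H19Ter 1 rose, 1 fell and 23 were not called (limma), beside 14.1% of all genes higher and 11% lower, with a median log2 fold change of 0.27. With the Pgkneo cassette 5 rose, 3 fell and 17 were not called, beside 27.7% higher and 26.7% lower, with a median of 0.08. Erbb4, a neuregulin receptor, rose in H19Ter/H19Ter (0.96, limma adjusted p = 0.0198) and H19Ter+neo/H19Ter+neo (1.06, limma adjusted p = 0.0027), and was named after its values were seen. Cst9, a cystatin of Sertoli cells, fell in H19Ter/H19Ter (-1.76, limma adjusted p = 0.0300), and Vnn1, a pantetheinase, rose in H19Ter+neo/H19Ter+neo (1.28, limma adjusted p = 0.00355). Both were low, with means of 1.12 and 0.737 CPM. The H19Ter/H19Ter libraries were far apart for Cst9, with a log2 CPM of -1.76 in replicate 3 and -0.31 in replicate 4, beside 0.83 and 0.62 in WT. Cbx2, a Polycomb subunit, was the highest of this list with a mean of 71.0 CPM.

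Receptors and partners of the Sertoli cell signals were lower or without a call. Of 11 genes, with a median log2 fold change of 0.08 and then -0.36 in the mutants against WT, 2 fell in H19Ter/H19Ter, none rose, and 1 reached an unadjusted p under 0.05 upward. With the Pgkneo cassette 5 fell, none rose, and 1 reached an unadjusted p under 0.05 upward. Of all genes 11% fell in H19Ter/H19Ter and 26.7% in H19Ter+neo/H19Ter+neo. Ptch1, the hedgehog receptor, had a mean of 278 CPM, and fell by 0.27 (limma adjusted p = 0.0332) and by 0.72 (limma adjusted p = 3.6e-05) on the log2 scale in H19Ter/H19Ter and H19Ter+neo/H19Ter+neo. Dhh itself differed by -0.04 and 0.03. Acvr1b, a type I activin receptor, fell by 0.60 in H19Ter+neo/H19Ter+neo (limma adjusted p = 0.000376), while Acvr2a, a type II activin receptor, had a mean of 43.0 CPM and differed by 0.10 (limma adjusted p = 0.252).

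Promoter sequence was at hand for 4 of the 10 genes (Dhh, Inha, Sox8 and Cldn11) in RefSeq, GRCm38.p6. The 250 bases before the RefSeq start were searched on both strands for 3 motifs, and no match overlapped with another. The core bound by SOX factors was searched as ACAAT, held by 27.4% of 32536 promoter windows of this length. That of the zinc finger family of Gata4 was searched as GATAA, held by 22.5% of them. That of NR5A1 was searched as AGGTCA, held by 14.0%. The Dhh and Inha windows held 1 match each, and those of Sox8 and Cldn11 held none. The Inha window (chr1:75507359-75507608, plus strand) lies inside the gene as GENCODE places it (75507077-75510366), so it is not sequence ahead of the gene in that annotation, whereas the windows of the other 3 genes adjoin their GENCODE starts. The sequences are shown for Dhh and Cldn11, a pair alike within genotypes, and for 30 bases around the Inha match, with matches in capitals. The Dhh window is chr15:98898541-98898790 (minus strand), with the GATAA match 221 bases before the start, on the opposite strand. The Cldn11 window is chr3:31149670-31149919 (plus strand), and the Inha match begins 69 bases before the RefSeq start.
Dhh: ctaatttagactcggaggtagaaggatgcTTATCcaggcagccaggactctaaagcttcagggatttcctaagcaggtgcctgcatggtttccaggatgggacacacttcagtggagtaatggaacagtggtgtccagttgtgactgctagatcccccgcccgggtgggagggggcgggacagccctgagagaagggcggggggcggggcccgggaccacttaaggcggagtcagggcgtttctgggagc
Cldn11: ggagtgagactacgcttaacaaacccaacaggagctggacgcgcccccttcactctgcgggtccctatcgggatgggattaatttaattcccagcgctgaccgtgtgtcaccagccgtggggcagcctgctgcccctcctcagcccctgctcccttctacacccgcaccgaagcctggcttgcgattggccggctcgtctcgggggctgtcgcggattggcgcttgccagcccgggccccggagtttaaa
Inha: ttggggattggcAGGTCAactttgaagagt
A match is a description of letters and not a binding site.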

How the data were processed

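Per the labels and the study's methods, 50-bp paired reads of rRNA-depleted total RNA were trimmed (Trim Galore 0.6.0), aligned to mm10 and counted per gene (STAR 2.7.8), and the authors deposited log2 CPM values made with edgeR. The sources used here give neither the annotation release nor the strand setting. Whole read pairs, recovered from the deposited log2 values after removal of the scaling and the prior count (mean 2), were whole within 1e-06 for 100% of values and gave the CPM, depths and 95% Poisson intervals, which cover counting error only. Exon lengths and places came from GENCODE vM21 (GRCm38), which held 20615 of the 20643 identifiers.

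limma 3.58.1 (R 4.3.3) was fitted to the log2 values of all 7 libraries by genotype, with a mean-dependent prior variance and Benjamini-Hochberg adjustment over 20643 genes, after a test on simulated data. Ratios to Amh were compared by exact permutation tests. Other scalings, pseudocounts (0.1 and 1), a filter (1 CPM in 2 libraries), voom, thinning to 37546716 read pairs, fits of 2 groups and fits without each library were tried. A lone library left in a group was assumed to vary like the other groups.

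The members and all gene lists were chosen with earlier results of these data known. Named genes were all 10 members, of each list the 2 highest by mean CPM and the 2 largest called changes in either mutant against WT, the 5 genes most like Amh, Sox9 and Dmrt1, and Ddx4 and Dazl for scale. The lists were members, further Sertoli cell genes, signal partners, and markers of germ cells, Leydig cells, interstitial and peritubular cells, endothelium, macrophages and leukocytes, erythroid cells, coelomic epithelium and rete, and pre-granulosa cells. Some genes that this rule names are not reported here. Proteins and the promoters of 6 members were not analysed here.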

Additional observations from a re-analysis of the deposited data

How the results depend on the processing

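No paired analysis was possible because the genotypes share no replicate numbers. Sox9 kept its direction and its call in both mutants against WT under all alternatives, with log2 fold changes from 1.15 to 1.48 and from 0.66 to 0.93. Members called ranged from 1 to 3 in H19Ter/H19Ter against WT and from 0 to 5 between the mutants when 1 library was left out, and the 0 (limma, without H19Ter/H19Ter replicate 3 or 4) stood beside 2 members at an unadjusted p under 0.05. The 5, without H19Ter+neo/H19Ter+neo replicate 5, were Sox9, Amh, Wt1, Inha and Dmrt1. With voom 1 member was called in H19Ter/H19Ter. Between the mutants 3 were called with the same total per library and 2 with log2(CPM + 1), with the filter and after thinning. Without replicates 3 and 5 together, chosen after seeing the data, 1 member was called in H19Ter/H19Ter.

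Over all genes, calls in H19Ter/H19Ter against WT went from 5187 to 3092 with voom, to 3542 without replicates 3 and 5, and to between 1408 (without WT replicate 2) and 5870 without 1 library (2260 and 1892 without replicates 3 and 4). Between the mutants they went from 5717 to 2550 without replicates 3 and 5 and to between 2326 (without replicate 3) and 5404 (2994 without replicate 4). The share of calls that were higher moved from 56.2% to 72.5% in H19Ter/H19Ter against WT and from 45.3% to 32.0% between the mutants with the same total per library. The cause of these changes was not tested beyond the smaller number of libraries.

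Changes near 0 and without a call turned sign. For Dhh in H19Ter/H19Ter the value was 0.033 with the same total, 0.014 with voom, 0.17 after thinning and -0.53 to 0.44 without 1 library. In H19Ter+neo/H19Ter+neo Dhh ranged from -0.21 to 0.26 without 1 library and was -0.21 without replicates 3 and 5. Between the mutants Dhh was -0.16 after thinning and -0.41 to 0.57 without 1 library. Leaving out 1 library gave Sox8 ranges of -0.12 to 0.57, -0.18 to 0.51 and -0.30 to 0.16 in the 3 comparisons, Inha -0.84 to 0.051 in H19Ter/H19Ter, and Cldn11 -0.18 to 0.59 in H19Ter/H19Ter and -0.20 to 0.57 between the mutants. Without replicates 3 and 5 Cldn11 was -0.18 in H19Ter/H19Ter. Clu between the mutants was 0.0019 after thinning, 0.07 without replicates 3 and 5 and -0.15 to 0.12 without 1 library. Against the median of 9 members in place of Amh, the ratios of Wt1, Inha and Dmrt1 turned to -0.25, -0.39 and -0.054. That median was the value of Sox9 in the WT libraries and of Amh in the mutant libraries, so it is not an independent reference.

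Precision was lowest for Cldn11, Dhh, Sox8 and Inha, which had the fewest read pairs. Their intervals, and also those of Amh, span a log2 unit or more in every comparison.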

Other observations

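Markers of germ cells and of other cells gave calls in both directions. The counts stand beside 25.1% of all genes called in H19Ter/H19Ter (14.1% higher and 11% lower) and 54.4% in H19Ter+neo/H19Ter+neo (27.7% higher and 26.7% lower). Germ cell markers, those of the cells that the sort collected, were at a median log2 CPM of 7.62 over 22 genes, with Dazl and Mael highest (959 and 692 CPM). Of them 3 rose and 7 fell in H19Ter/H19Ter and 9 rose and 4 fell in H19Ter+neo/H19Ter+neo (limma, adjusted p under 0.05). Dnmt3l, the cofactor of de novo DNA methylation, rose in both mutants (1.20 and 1.21 on the log2 scale), and Rhox6 fell in H19Ter/H19Ter (-1.34, limma adjusted p = 0.0226). Rhox6 had a mean of only 0.532 CPM. Of 19 interstitial and peritubular markers, 2 rose and 1 fell in H19Ter/H19Ter and 5 rose and 4 fell in H19Ter+neo/H19Ter+neo. Pdgfrb, the receptor of platelet-derived growth factor on mural cells (2.0 and 1.72), and Des, the muscle filament desmin (1.54 and 1.96), rose in both mutants, and Ptch1 and Pdgfra were the highest of that list (278 and 18.2 CPM). Ptch1 differed by 0.006 between replicates 3 and 4 and by 0.012 between replicate 5 and the mean of replicates 6 and 7. In contrast, 8 of the 19 markers were past 0.5 in both groups, and the cells behind the level of Ptch1 were not tested. Of 8 Leydig cell markers, none was called in H19Ter/H19Ter by limma, nor at an unadjusted p under 0.05, and in H19Ter+neo/H19Ter+neo Fdx1 rose (0.29) and Scarb1 fell (-0.19).

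The same shares of all genes apply to the next lists. Of 9 endothelial markers, 2 rose and 1 fell in H19Ter/H19Ter and 5 rose and 2 fell in H19Ter+neo/H19Ter+neo. Pecam1 fell in both (-0.57 and -1.10) and Flt1 rose in both (0.75 and 0.74), and in H19Ter+neo/H19Ter+neo Emcn rose (1.83) and Cldn5 fell (-1.74). Pecam1 and Flt1 were the highest of that list (26.3 and 12.7 CPM), and the cells behind their levels were not tested. Emcn and Cldn5 were low, with means of 0.543 and 0.567 CPM and lowest values of 0.0893 and 0.0811 CPM. Of 6 markers of coelomic epithelium and rete, 3 rose and 2 fell in each mutant, with Aldh1a2 and Pax8 highest (31.2 and 7.06 CPM), Gng13 lower (-2.19 and -2.91) and Krt19 higher (1.73 and 1.32). Of 5 pre-granulosa markers, 2 rose in H19Ter/H19Ter and 4 rose and 1 fell in H19Ter+neo/H19Ter+neo. Wnt4 and Fst rose in both (Wnt4 1.42 and 1.02, Fst 0.71 and 0.73), and in H19Ter+neo/H19Ter+neo Bmp2 rose (1.02) and Rspo1 fell (-0.80). Wnt4 had a mean of only 0.444 CPM. The 4 macrophage and leukocyte markers and the 2 erythroid markers with a value gave no call in H19Ter/H19Ter by limma (0 and 1 at an unadjusted p under 0.05). In H19Ter+neo/H19Ter+neo Adgre1 and Fcer1g (1.94 and 1.45) and Alas2 and Slc4a1 (1.21 and 1.60) rose, while Cd68 and Cx3cr1, the highest of their list, differed by -0.15 and -0.03 without a call. Adgre1 and Slc4a1 were low, with means of 0.422 and 0.545 CPM and lowest values of 0.0898 and 0.135 CPM.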
